A study of Vitis vinifera with 66 samples.

Results

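The 150 genes described here were those whose expression in grape berries rose most while a summer drought and heatwave lasted. They were chosen from the read counts themselves. Counts were scaled to the total of their library to give counts per 1000000 (CPM), rows that shared a gene identifier (ID) were summed, and L was taken as the mean of log2(CPM + 1) over the 12 stressed libraries of the middle and the end of the heatwave minus the same mean over the 12 unstressed libraries of those days. Of 29537 gene IDs, 12240 had a mean of at least 5 CPM in those stressed libraries, and the 150 with the highest L were kept. The rise during the heatwave is therefore what defined the list and is given below without a test. Tests were run on the days before, the recovery, the harvest, the course of ripening in unstressed berries and the spring flooding. Differences within the libraries of T2 and T3, such as T3 over T2 or FH over H, use the values that chose the genes and are given as a description.

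The berries came from potted vines of Vitis vinifera cv Sauvignon Blanc (clone 108) on the rootstock Kober 5 BB. Control vines (C) were never stressed, F vines were flooded around bud break in spring, H vines went through a summer drought down to 30% of field capacity followed by a heatwave set 5 °C warmer, and FH vines had the spring flooding and then the same drought and heatwave. Berries were sampled just before véraison (T0), 9 days later under overt drought and before the heat (T1), on day 13 in the heatwave (T2), on day 15 at its end (T3), on day 24 after recovery (T4) and on day 28 at harvest (T5), with 3 libraries for each of 22 groups and 66 in all. Only C and F berries were sampled at T0. H and FH berries are called stressed and C and F berries unstressed, also at T1 and after the heatwave, and stress effects are averages over the vines with and without flooding. The stressed vines stood in 1 plastic tunnel and the unstressed vines in the other, so the summer stress and the tunnel cannot be told apart, and a log2 fold change below compares those groups of vines. The labels give the heatwave as 1 week, and the study's methods give a shorter one.

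Heat makes plant cells produce heat shock proteins, chaperones that keep other proteins from clumping or, as HSP101 does, pull clumped proteins apart again. Trehalose-phosphate synthases and phosphatases make trehalose by way of trehalose 6-phosphate, a sugar signal of plant cells. Gibberellin 2-oxidases (GA2ox) inactivate gibberellins, and glyoxalase I, also called lactoylglutathione lyase, removes methylglyoxal, a toxic by-product of sugar breakdown. Berries begin to ripen at véraison, when they soften and take up sugar, and many genes change with ripening whether or not the vine is stressed.

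The libraries held 15927671 to 24150978 counts with a median of 19168492. The labelled stage was checked on unstressed berries: ACO1 (VIT_11s0016g02380), the last enzyme of ethylene synthesis, was 9.20 log2 higher at T5 than at T0. Of the 4 ethylene genes tested, 2 were called higher and 1 lower, where 27.2% and 33.0% of all genes were. The lower one was ACO3 (VIT_00s2086g00010), with -6.83. Of 16 auxin signalling genes, 15 were lower, where 33.0% of all genes were. The study had listed these 16 from its comparison of C with F berries at T1 in the same series, so they are not an independent check. Nor is ACO1, whose rising course the study had described from the same series. One library stood apart in the genes of the list. In replicate 2 of FH at T4, 109 of the 150 genes had their highest value of the 12 libraries of that day, against 17.1% of all 19553 genes tested. The main call counts of T4 are therefore given with and without it. Effects on single genes at T4 are with all libraries unless stated. Replicates 1 and 2 of F at T5 were closer to each other than any other of 66 replicate pairs, with a mean chi-square per gene of 1.98 against at least 10.2 elsewhere and 1 for sampling noise alone. They differed by more than sampling noise and were kept apart. The berries are bulk tissue, so fewer cells of a type and less RNA per cell cannot be told apart.

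Gene IDs of the list carry no names in the deposited counts, and 4 are named by the study: VIT_17s0000g07190 is HSP101, VIT_17s0000g08010 a trehalose-phosphatase/synthase, VIT_09s0002g06430 a lactoylglutathione lyase (glyoxalase I) and VIT_10s0003g03490 a GA2ox. The study chose 5 of the genes as targets of quantitative PCR, and the primers are shown because they tie these IDs, 4 of which have no name here, to a stretch of transcript. They were taken from the study's primer table and are written 5′ to 3′.
VIT_17s0000g08010 forward: tgctgtgagggatggaatga
VIT_17s0000g08010 reverse: acgagaggacccagaggtaa
VIT_04s0023g02480 forward: gcgagtctaggtccataggtcatag
VIT_04s0023g02480 reverse: cagcgactacattgagaaagcagaa
VIT_06s0004g06830 forward: taggagtgaagatggtgatatccgg
VIT_06s0004g06830 reverse: gtgcctttatcttgcgacatgtttc
VIT_09s0002g06790 forward: cttggctcgtttggctttgag
VIT_09s0002g06790 reverse: ttgccgagaacctcttcaca
VIT_14s0060g02340 forward: aatcaaagatgctgtcgtcactgtt
VIT_14s0060g02340 reverse: tttattatccgagccacattgagcc

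By construction, all members were higher in the stressed berries of the heatwave. L ran from 1.33 to 4.26 with a median of 1.65, and 36 genes had an L of at least 2. For 21 of the 150 genes every stressed library of T2 and T3 lay above every unstressed one. That count rests on the libraries that chose the genes and is a description, and the share over all genes was not computed. The median difference in log2(CPM + 1) was 2.01 between H and C and 1.83 between FH and F at T2, and 1.49 and 1.74 at T3. Levels differed widely: the mean over the stressed libraries ran from 5.02 to 4879 CPM with a median of 34.0, 32 genes were under 10 CPM, 39 reached 100 CPM and 6 reached 1000 CPM. A gene is said to be called, to rise or to fall where edgeR's quasi-likelihood test gave it an adjusted p (Benjamini-Hochberg) below 0.05 together with a change of 1.5-fold or more. On that threshold 133 members were higher at T2, where 9.09% of all genes were, and 105 at T3, where 2.81% were. Those counts use the contrast that chose the genes and are a description only. The T3 count was 67 without replicate 2 of C and 66 without replicate 3 of F at T3.

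VIT_05s0077g01150 led the list with an L of 4.26. At T2 it stood at 142, 60.1 and 15.99 CPM in H and 20.1, 27.8 and 28.5 CPM in FH, and at 0.113 to 2.28 CPM in the unstressed berries. At T3 the stressed libraries held 35.1 to 175 CPM and the unstressed 1.51 to 11.03 CPM, so that no library of one side reached the other on either day. At T0 and in unstressed berries of T1 the gene was nearly silent, with at most 0.273 CPM. VIT_14s0128g00570, with an L of 4.01, had 5.83 to 228 CPM in the 12 stressed libraries and 0.104 to 4.95 CPM in the unstressed. VIT_19s0090g01340, with an L of 3.61, was also among the 5 most abundant members and had 513 to 4913 CPM against 39 to 178 CPM. In these 3 genes the lowest of the 12 stressed libraries was above the highest of the 12 unstressed.

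VIT_18s0089g01270 (L 3.11) and VIT_01s0010g02290 (L 2.99) overlapped between the groups, as most members did. VIT_18s0089g01270 had 94.3 to 1104 CPM in the stressed and 4.102 to 115 CPM in the unstressed libraries, and the corresponding ranges of VIT_01s0010g02290 were 75.7 to 825 and 1.79 to 178 CPM. VIT_00s0265g00090, on an unplaced scaffold with an L of 3.06, had 7.503 to 107 CPM against 0.383 to 5.38 CPM, without overlap. The other 6 of the 12 highest were VIT_04s0008g01590, VIT_13s0019g03000, VIT_08s0007g02360, VIT_13s0019g02930, VIT_13s0019g03160 and VIT_08s0007g06040, with L from 2.64 to 2.94. At the other end, the last 3 genes inside the limit were VIT_08s0007g01810 (L 1.336), VIT_18s0001g06670 (1.335) and VIT_18s0001g02770 (1.328), and the first 3 outside were VIT_02s0154g00490 (1.322), VIT_01s0146g00150 (1.322) and VIT_09s0054g00430 (1.321), so the limit did not fall in a gap.

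The 5 most abundant members held 49.62% of all counts of the list in the stressed libraries of the heatwave. VIT_02s0025g04300 had 6351, 5470.1 and 5188 CPM in H and 2628, 4225 and 6559.7 CPM in FH at T2, against 316 to 2139 CPM in unstressed berries. It was at 0.219 to 1.51 CPM at T0 and at 990.4 to 2325 CPM in all groups at T5. VIT_15s0046g01560 took the opposite course, with 6075 to 10736 CPM at T0, 1147 to 8544 CPM in the stressed berries of the heatwave, 354 to 5537 CPM in the unstressed and 191 to 931 CPM at T5. VIT_12s0035g01910 in H berries had 2938, 4024 and 1396 CPM at T1 and 2164, 3212 and 2438 CPM at T2, overlapping. In FH berries it had 589.8, 1721 and 1732 CPM at T1 and 3399, 1433 and 4035 CPM at T2. VIT_08s0007g06040 was at 15.5 to 59.4 CPM at T0 and reached 1097 to 3775 CPM in the stressed libraries of the heatwave, all of them above the 59.7 to 671 CPM of the unstressed.

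Together the 150 genes made up 1.88 to 4.25% of a stressed library at T2 and T3, and 0.690 to 1.26% of an unstressed one. At T0 the share was 0.944 to 1.41%. At T1, before any heat, it was already 2.62 to 3.20% in H, 1.47 to 2.86% in C, 0.638 to 2.02% in FH and 0.682 to 1.15% in F, so that every C library was above every F library and every H library above every FH library. After recovery the share was 0.651 to 1.25% in 11 of the 12 libraries of T4 and 6.14% in replicate 2 of FH, the highest of all 66 libraries. H held 1.10 to 1.25% and C 0.665 to 0.782%, without overlap. Replicates 1 and 3 of FH held 0.926 and 0.98%, within the 0.651 to 1.17% of F. At T5 the share was 0.576 to 1.06%. FH then held 0.785 to 0.881% and F 0.576 to 0.766%, without overlap, while H (0.663 to 1.06%) overlapped C (0.622 to 0.738%).

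**Figure D1:**
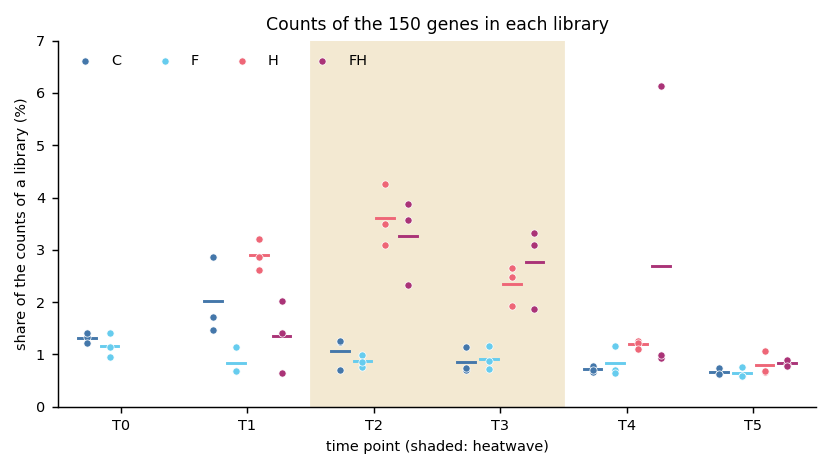
Share of each library's counts taken by the 150 genes (%), by time point, with a point for each of the 3 libraries of a group and a bar for the group mean. The shaded libraries of the heatwave chose the genes, the stressed ones there hold 1.88 to 4.25%, and 1 FH library of T4 lies at 6.14%, above all others.

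HSP101, the only member with a name that marks it as a chaperone, ranked 119 with an L of 1.44. It had 1061, 1200 and 521 CPM in H and 2040.4, 1287 and 489 CPM in FH at T2, against 1028, 143 and 738 CPM in C and 456, 200 and 666 CPM in F, and the groups overlapped. The gene was as high before the heat: at T1 the C berries held 1204, 1474 and 1322 CPM and the H berries 1662, 546 and 2426 CPM, while T0 gave 126 to 250.5 CPM. Unstressed berries rose from T0 to T1 by a log2 fold change of 2.07 (SE 0.72, adjusted p = 0.0148). The stress effect was 0.70 (SE 0.70, adjusted p = 0.664) at T1, 1.17 (SE 0.71, adjusted p = 0.395) at T4 and 0.64 (SE 0.70, adjusted p = 0.521) at T5, none past the threshold. The T4 value is with all libraries. FH over F at T4 was 0.93 by the fit but -0.61 as a difference of mean log2(CPM + 1). The FH berries of T1 alone held 269, 2413 and 311 CPM, and across the 66 libraries the gene ran from 18.8 to 2426 CPM.

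The trehalose-phosphatase/synthase VIT_17s0000g08010 was separated cleanly at T2. It had 31.3, 34.5 and 40.99 CPM in H and 28.1, 24.2 and 32.5 CPM in FH, and 3.49 to 6.76 CPM in the unstressed berries. At T3 the stressed libraries held 10.6 to 25.4 CPM and the unstressed 3.68 to 14.2 CPM, with an overlap. It went back to 5.62, 5.39 and 6.897 CPM in H at T4, beside 5.06, 42.6 and 6.61 CPM in FH, where only replicate 2 was high. At T5 the C berries had 11.3, 15.01 and 15.3 CPM and the H berries 7.58, 4.45 and 5.93 CPM, and the stress effect of -0.75 (SE 0.35, adjusted p = 0.1) was not past the threshold.

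The glyoxalase I gene VIT_09s0002g06430 came on with ripening. It was at 0.289 to 1.04 CPM at T0, and at T1 it had 4.57, 5.51 and 6.22 CPM in C and 21.2, 16.8 and 20.8 CPM in F. Every F library exceeded every C library, with a log2 fold change of 2.06 (SE 0.59, adjusted p = 0.0114) which lost its call without replicate 1 of C at T1 (1.94). During the heatwave the stressed libraries held 50.8 to 77.9 CPM at T2 and 30.6 to 98.2 CPM at T3, against 12.7 to 36.9 and 4.81 to 33.4 CPM in the unstressed, without overlap at T2 and with one at T3. By T5 all groups were at 3.18 to 13.3 CPM, still above T0, and the unstressed T5 over T0 change was 3.32 (SE 0.51, adjusted p = 1.41e-07).

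The gibberellin 2-oxidase VIT_10s0003g03490 turned its direction between the heatwave and the harvest. At T3 it had 8.78, 14.2 and 9.55 CPM in H and 33.3, 39.9 and 50.5 CPM in FH, against 2.29 to 6.27 CPM in unstressed berries, and all FH libraries were above all H libraries. The log2 difference of FH over H at T3 was 1.91. At T5 the C berries had 9.07, 20.7 and 6.66 CPM and the F berries 3.66, 3.28 and 18.3 CPM, above 1.45, 3.14 and 3.11 CPM in H and 1.19, 1.02 and 1.52 CPM in FH. No stressed library reached an unstressed one there, and the gene was lower in stressed berries by a log2 fold change of -2.47 (SE 0.65, adjusted p = 0.00274). In unstressed berries it rose from T0 to T5 by 5.16 (SE 0.80, adjusted p = 1.69e-07).

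**Figure D2:**
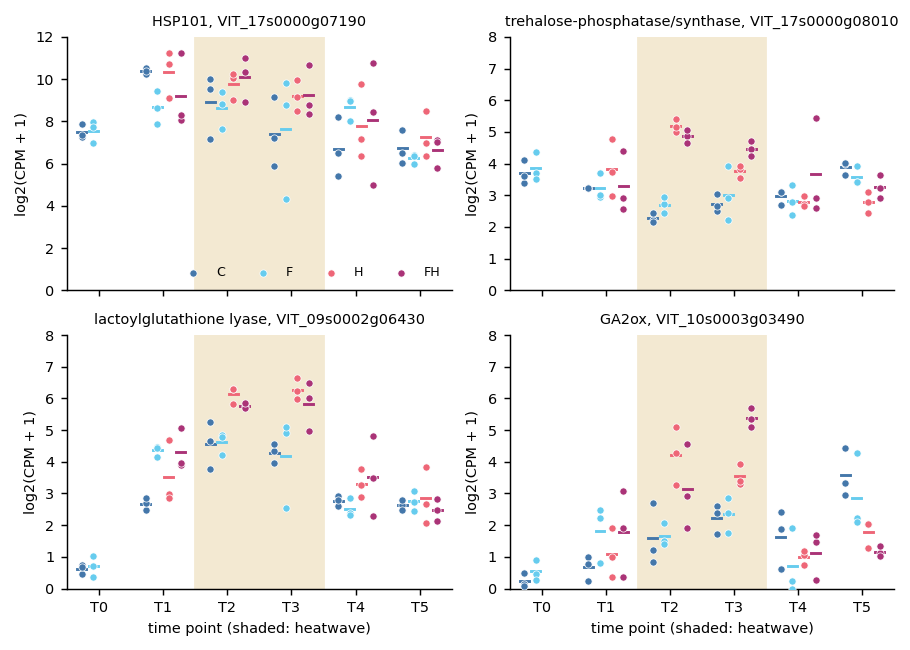
Levels of the 4 named members as log2(CPM + 1) by time point, a point for each library and a bar for each group mean, with the heatwave shaded. HSP101 is at 1204 to 1474 CPM in C berries of T1, before the heat, whereas the trehalose gene is above all unstressed libraries in both stressed groups at T2, and GA2ox is lower in stressed than in unstressed berries at T5.

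Of the 4 quantitative PCR targets without a name, VIT_09s0002g06790 was higher in stressed berries before the heat. It had 152, 114 and 99.5 CPM in H and 17.6, 42.3 and 36.6 CPM in FH at T1, against 32.5, 29.6 and 21.6 CPM in C and 26.1, 12.6 and 20.01 CPM in F, with a log2 fold change of 1.41 (SE 0.31, adjusted p = 0.00992). All H libraries lay above all C libraries, and FH overlapped F. VIT_14s0060g02340 was at 53.3, 25.3 and 59.6 CPM in FH and 10.3, 18.1 and 13.8 CPM in H at T3, a log2 difference of 1.66, and the H libraries lay within the 8.67 to 18.4 CPM of unstressed berries. Its smallest FH library was above its largest H library. 

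The other 2 targets had low levels in the heatwave. VIT_06s0004g06830 had 2.73, 10.5 and 8.701 CPM in H and 4.59, 1.76 and 20.6 CPM in FH at T2, against 0.545 to 2.25 CPM in unstressed berries, and 1.33, 41.5 and 0.958 CPM in FH at T4. VIT_04s0023g02480 had 5.54, 3.57 and 13.1 CPM in H and 18.04, 21.2 and 9.17 CPM in FH at T3, against 0.623 to 2.79 CPM. Its highest value in any library, 51.6 CPM, was in replicate 2 of C at T4, an unstressed group.

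The course of the list without summer stress was mostly upward. From T0 to T1, 82 members rose and 10 fell in unstressed berries, with 14.7% and 21.5% of all genes doing so, and the median log2 fold change was 1.62 against -0.05 over all genes. From T0 to T5, 77 rose and 23 fell, where 27.2% and 33.0% of all genes did, and the medians were 1.604 and -0.03. VIT_02s0025g04300 rose most, by 11.48 (SE 0.83, adjusted p = 2.23e-16). VIT_14s0128g00570 followed with 1426 counts in the 6 unstressed libraries of T5 against 1 count at T0, a ratio of 1164 with an exact 95% interval from 209 to 45994 that covers counting error only. VIT_08s0007g08330 had 0.0579 to 0.434 CPM at T0 and 57.6 to 188 CPM in unstressed berries of T5, a log2 fold change of 9.57 (SE 0.92, adjusted p = 1.19e-12).

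The largest falls were those of VIT_06s0004g05770, VIT_00s0904g00010 and VIT_07s0129g00330. VIT_06s0004g05770 went from 86.3 to 209 CPM at T0 to 1.52 to 2.205 CPM in unstressed berries of T5, a log2 fold change of -6.09 (SE 0.84, adjusted p = 1.50e-08). On the way it stood at 1088, 579.5 and 378 CPM in C and 62.95, 13.9 and 181 CPM in F at T1. VIT_00s0904g00010 went from 335 to 386 CPM at T0 to 3.97 to 6.88 CPM in unstressed berries of T5, a log2 fold change of -6.05 (SE 0.66, adjusted p = 3.77e-11), and in the heatwave it had 21.6 to 176 CPM in stressed and 6.84 to 90.9 CPM in unstressed libraries, all below T0. VIT_07s0129g00330 had 27.7 to 70.3 CPM at T0 and 0.768 to 1.53 CPM in unstressed berries of T5, a change of -5.19 (SE 0.61, adjusted p = 2.47e-10).

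Over all 22 group means, 93 members had their highest mean in a stressed group of the heatwave: 29 in H and 21 in FH at T2, and 11 in H and 32 in FH at T3. Another 35 were highest at T1, before the heat, 29 of them in H and 6 in C. The rest were highest at T5 (11 genes), T4 (6) or T0 (5). The rule chose genes for high values in the stressed groups of the heatwave, so these counts are a description. The share of all genes that were highest in each group was not computed.

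**Figure D3:**
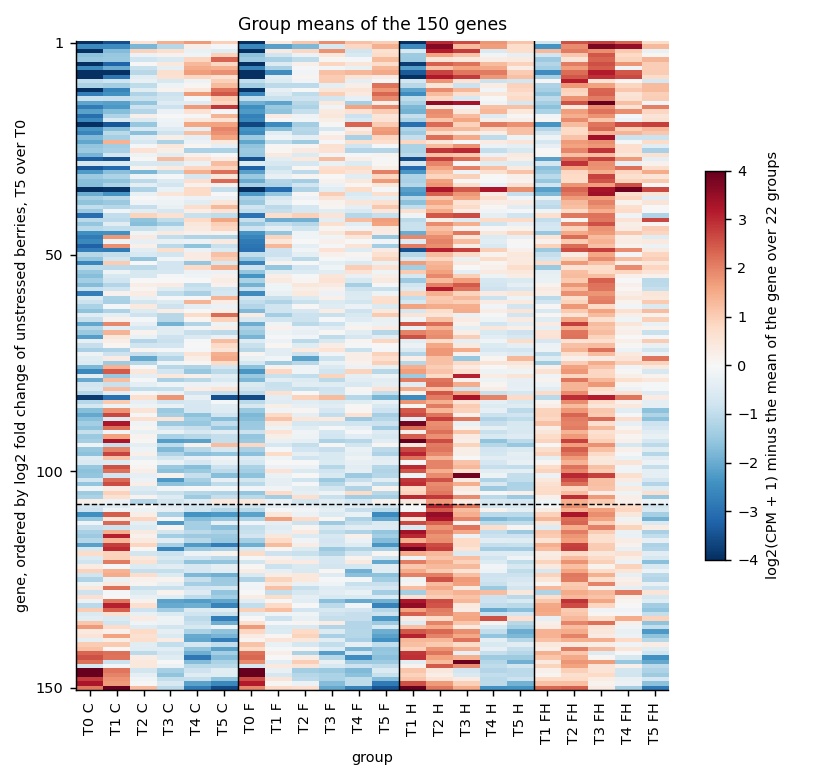
Group means of the 150 genes in 22 groups, coloured by log2(CPM + 1) minus the gene's mean over the groups, with genes in order of their T5 over T0 log2 fold change in unstressed berries. The dashed line parts the 107 genes with a positive change from the others. Upper rows are low at T0 and high in H and FH at T2 and T3, and 35 of the 150 genes have their highest group mean in C or H at T1.

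Before the heat, under drought alone, 7 members were called and all 7 were higher in stressed berries, where 0.782% of all genes were higher and 0.593% lower. The median log2 fold change over the members was 0.38 against 0.03 over all genes, and 100 of 150 were above 0. VIT_05s0077g01150 had 0.12, 0.816 and 1.904 CPM in H and 1.65, 0.557 and 0.358 CPM in FH, with 94 counts in the stressed libraries against 2 in the unstressed, a ratio of 47.4 (exact 95% interval 12.8 to 397, counting error only). VIT_03s0038g03400 had 64 counts against 6, a ratio of 10.7 (4.68 to 30.4), and a fitted log2 fold change of 3.23 (SE 0.78, adjusted p = 0.0163). Both genes stayed under 2 CPM at T1. The call of VIT_05s0077g01150 was lost without replicate 2 or 3 of C, replicate 3 of H, replicate 1 of FH or replicate 2 of F (fitted log2 fold changes of 5.11 to 5.68), and that of VIT_03s0038g03400 without replicate 2 of F (2.97).

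VIT_14s0108g00590 was the most abundant of the 3 largest rises at T1. It had 50.96, 8.16 and 79.4 CPM in H and 2.81, 15.03 and 1.01 CPM in FH, against 4.39, 6.42 and 5.92 CPM in C and 0.698, 0.577 and 0.618 CPM in F, a log2 fold change of 3.19 (SE 0.84, adjusted p = 0.0281). H lay above C and FH above F, without overlap. The call was lost without replicate 1, 2 or 3 of C, replicate 3 of H, replicate 2 of FH, or replicate 2 or 3 of F (2.36 to 3.25). The other 4 rises at T1 were 1.41 to 2.16. The count of 7 was 3 without replicate 2 or 3 of C, 4 without replicate 1 of FH or replicate 3 of F, and 1 without replicate 2 of F at T1.

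Spring flooding moved members in both directions at T1 in berries that had seen no summer stress. Of the 150 genes, F berries had 18 at a higher and 6 at a lower level than C berries, where 6.20% and 8.52% of all genes were, and the median was 0.26 against -0.05. VIT_02s0025g04300 had 581, 1389.6 and 1001 CPM in F and 80.7, 41.8 and 70.7 CPM in C, without overlap. VIT_14s0060g02340 went the other way, with 9.51, 8.89 and 25.4 CPM in F and 123, 43.5 and 38.03 CPM in C, a log2 fold change of -2.01 (SE 0.42, adjusted p = 0.00103). HSP101 had 399, 237 and 701 CPM in F, all below C. The members differed by their course in ripening. The 77 members that rose with ripening had a median F over C of 0.90, with 17 higher and 1 lower, and the 23 that fell had -0.95, with 0 higher and 4 lower. The 50 without a call from T0 to T5 had the lowest median, -1.22, with 1 higher and 1 lower. Over all genes of the 3 classes the medians were 0.35, -0.64 and 0.0065. The F and C libraries of T1 are not among those of T0 and T5 that set the classes. The counts were 10 higher and 2 lower without replicate 1 of C, 10 and 4 without replicate 2 of C, and 8 and 1 without replicate 2 of F.

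Within the heatwave, the stressed berries of T3 were compared with those of T2. As a description, since these libraries chose the genes, 9 members were called lower and 3 higher at T3, where 4.55% and 3.73% of all genes were, and the median log2 fold change was -0.43 against -0.02. VIT_09s0002g06790 went from 33.4, 156 and 82.7 CPM in H and 244, 34.3 and 92.5 CPM in FH to 31.9, 36.1 and 57.04 and 48.7, 29.7 and 37.4 CPM, a log2 fold change of -1.27 that was -0.81 without replicate 1 of FH at T2. VIT_14s0060g02340 had 38.2 to 94.5 CPM at T2 and 10.3 to 59.6 CPM at T3, overlapping, a log2 fold change of -1.22. The counts were 5 higher and 15 lower without replicate 1 of H, 0 and 4 without replicate 2 or 3 of H, 2 and 2 without replicate 1 of FH and 0 and 6 without replicate 3 of FH at T2. At T3 they were 2 and 5 without replicate 1 of H, 1 and 5 without replicate 3 of H, and 4 and 17 without replicate 1 of FH.

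The summer stress effect of flooded and unflooded vines was also compared within these libraries, again as a description. No member differed at T2 or T3 by edgeR's quasi-likelihood test, nor did any of the 19553 genes (0.0%). An unadjusted p under 0.05 was reached by 2 of the 150 members at T2 and 10 at T3. Of all 19553 genes, 463 and 1694 reached it. DESeq2 called 0 members on both days, where it called 0.0102% of all genes at T2 and 0.00511% at T3. A test that finds none does not show that the effects were alike. At T3, leaving out replicate 1 of FH gave 1 call.

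At the end of the heatwave, and again as a description, 10 members were called between FH and H and all 10 were higher in FH, where 0.772% of all genes were higher and 0.588% lower, and the median was 0.72 against 0.04. All 10 were among the 77 that rose with ripening, whose median was 1.12. Over all genes that rose with ripening the median was 0.31, and over all that fell it was -0.30. VIT_12s0034g01890 had 3.02, 3.69 and 32.1 CPM in FH and 0.231, 0.213 and 0.469 CPM in H, a log2 fold change of 5.22. Its neighbour VIT_12s0034g01930 had 2.66, 4.098 and 28.4 and 0.635, 0.32 and 0.41 CPM, a change of 4.51. In both genes every FH library was above every H library, and replicate 3 held most of the FH counts.

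VIT_07s0104g01260 had 2.71, 0.717 and 33.1 CPM in FH and 0.462, 1.87 and 0.0586 CPM in H, overlapping, with 3.74. Leaving out replicate 3 of FH, or replicate 1 or 3 of H, left none of the 10 calls, and leaving out replicate 2 of H left 5. Without replicate 3 of FH the log2 fold changes of the 3 genes were 3.54, 2.98 and 1.16.

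After recovery the call count depended on single libraries, and the median over the list on replicate 2 of FH. Of the 150 genes, 19 were called and all 19 were higher in stressed berries at T4, where 0.527% of all genes were higher and 0.276% lower, with a median of 1.06 against 0.01 and 131 genes above 0. Without replicate 2 of FH, 1 was higher, where 0.0256% of all genes were higher and 0.0205% lower, with a median of 0.10 and 90 genes above 0. That library was above the mean of replicates 1 and 3 by a median of 1.94 in log2(CPM + 1) over the members, against -0.23 over all genes, and 72 members were more than 4-fold above. It held 20681499 counts, and replicates 1 and 3 held 22520515 and 20875295. For 22 members it was the highest of all 66 libraries, against 1.58% of all genes. By DESeq2, with all libraries, 34 members were higher, where 1.42% of all genes were. What set this library apart was not tested.

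VIT_05s0049g00550 was the 1 member still called without that library. At T4 it had 556, 342 and 849.9 CPM in H and 145, 534 and 216 CPM in FH, against 98.3, 37.9 and 22.6 CPM in C and 38.2, 83.1 and 33.7 CPM in F. All stressed libraries were above all unstressed ones, and the log2 fold change was 3.09 (SE 0.41, adjusted p = 2.58e-05), or 2.61 without replicate 2 of FH. VIT_14s0128g00570 had 59.1, 432 and 11.4 CPM in FH and 22.2, 5.24 and 45.8 CPM in H against 2.33 to 13.2 CPM, with 3.09 (SE 0.72, adjusted p = 0.0281) and 1.81 without that library, no longer called. Its call was also lost without replicate 2 or 3 of C, replicate 1 or 3 of H, or replicate 1 or 2 of F (2.68 to 3.20).

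VIT_16s0050g00400 rested on that library alone. It had 2.71, 889 and 1.82 CPM in FH and 3.68, 2.05 and 0.92 CPM in H at T4, and 1.097 to 6.005 CPM in the unstressed berries. In the stressed berries of the heatwave it had been at 2.88 to 24.1 CPM, below that library in every case. Its stress effect of 3.099 (SE 0.77, adjusted p = 0.0361) became -0.59 without replicate 2 of FH, and the call was also lost without replicate 1, 2 or 3 of C, replicate 1 or 3 of H, or replicate 1 or 2 of F (2.80 to 3.29). The count of 19 at T4 was 1 without replicate 2 of C or replicate 1 of H, 3 without replicate 3 of C, 7 without replicate 3 of H, 39 without replicate 1 and 35 without replicate 3 of FH, 2 without replicate 1 of F and 9 without replicate 2 of F.

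**Figure D4:**
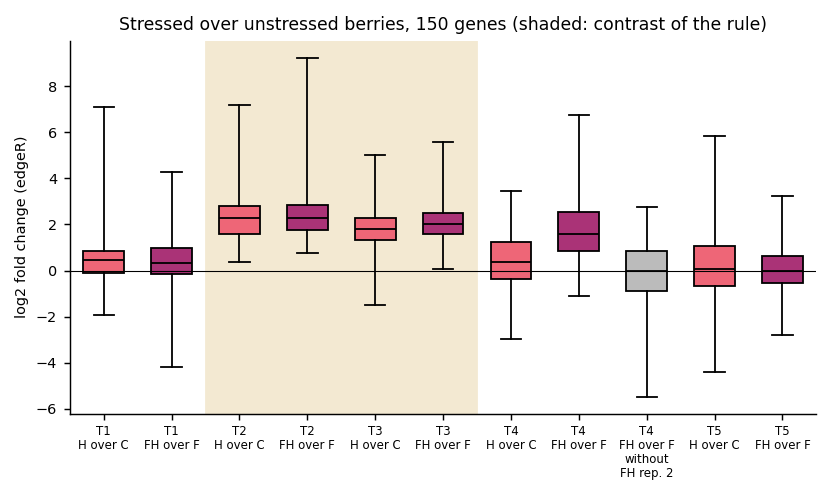
Log2 fold changes of the 150 genes, stressed over unstressed berries, by time point and by flooding. Boxes run from the lower to the upper quartile with the median as a line, whiskers to the lowest and highest gene, and the shaded comparisons chose the genes. At T4 the FH over F median is 1.58 with all libraries and close to 0 without replicate 2 of FH, and the H over C median is 0.38.

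Between FH and H at T4, 3 members were called and all 3 were higher in FH, where 0.0614% of all genes were higher. They were VIT_16s0050g00400 with 7.32 (SE 1.27, adjusted p = 0.00603), VIT_10s0003g01940 with 3.34 (SE 0.68, adjusted p = 0.0184) and VIT_01s0137g00790 with 2.299 (SE 0.46, adjusted p = 0.0184). Without replicate 2 of FH the 3 calls were lost and the values were -0.06, 0.53 and 1.35, and they were also lost without replicate 1 or 3 of H. The count was 1 without replicate 2 of H, 35 without replicate 1 of FH, 23 without replicate 3 of FH and 22 by DESeq2, where 0.777% of all genes were higher. VIT_01s0137g00790 was also the 1 gene of all 19553 (0.00511%) whose stress effect differed between flooded and unflooded vines at T4. It had 2.47, 8.01 and 3.31 CPM in H against 11.6, 11.9 and 16.2 CPM in C, and 8.17, 36.8 and 16.7 CPM in FH against 2.29, 5.47 and 9.46 CPM in F. Every H library was below every C library and FH overlapped F, with a log2 difference between the effects of 3.47 (SE 0.65, adjusted p = 0.045). It was not called without replicate 1, 2 or 3 of C, replicate 1 or 3 of H, replicate 2 of FH, or replicate 1 or 2 of F (2.53 to 3.56).

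At harvest the list no longer had a common direction. At T5, 12 members were higher and 17 lower in stressed berries, where 8.57% and 7.75% of all genes were, and the median was 0.06 against 0.02. VIT_12s0059g00490 had 40.03, 53.02 and 238 CPM in H and 51.1, 65.6 and 59.98 CPM in FH, against 3.19, 2.62 and 3.61 CPM in C and 14.4, 15.4 and 8.09 CPM in F, a log2 fold change of 3.73 (SE 0.64, adjusted p = 1.41e-05). VIT_05s0049g00550 had 89.2, 103 and 349 and 185, 215 and 133 CPM against 9.28 to 20.4 CPM, with 3.57 (SE 0.42, adjusted p = 2.90e-08). VIT_19s0090g01340 had 444, 491 and 880.1 and 1128, 1251 and 715 CPM against 70.2 to 205 CPM, with 2.805 (SE 0.59, adjusted p = 0.000253). In these 3 genes no stressed library overlapped an unstressed one at harvest, and each call held when any single library was left out. From T4 to T5 the stress effect fell in 12 members, where it fell in 2.16% of all genes, and without replicate 2 of FH at T4 it fell in 6 and rose in 1, where 2.18% and 3.93% of all genes did. The count was also 6 without replicate 1 of H at T4 or replicate 3 of F at T5, 7 without replicate 2 of C at T5, and 19 and 20 without replicates 1 and 3 of FH at T4. Of the 12 members higher at T5, 7 were among the 19 higher at T4, where replicate 2 of FH weighs on the calls.

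The largest falls at T5 were in VIT_06s0009g02590, VIT_02s0087g00750 and the GA2ox. VIT_02s0087g00750 had 6.501, 11.8 and 12.9 CPM in C and 1.36, 2.01 and 15.4 CPM in F, against 0.908, 0.702 and 0.371 CPM in H and 0.548, 1.86 and 1.71 CPM in FH, a log2 fold change of -3.07 (SE 0.73, adjusted p = 0.00105). The H libraries were below all unstressed ones and FH overlapped F. VIT_06s0009g02590 had 0 to 0.608 CPM in the stressed and 0.218 to 8.08 CPM in the unstressed libraries, with -3.12 (SE 0.94, adjusted p = 0.00903), and lost its call without replicate 3 of F (-2.08). Without that library the counts at T5 were 9 higher and 8 lower.

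Among the members that rose with ripening in unstressed berries, 1 was higher and 14 were lower at T5, and among those that fell 7 were higher and 1 lower, and among the 50 without a call 4 were higher and 2 lower. The classes and the T5 effect share the unstressed libraries of T5, so this split is a description. The corresponding medians were -0.20, 0.62 and 0.40, against -0.19, 0.24 and 0.03 over all genes of those classes. At T4 the medians were 0.57, 1.41 and 1.59 with all libraries and 0.14, 0.10 and 0.09 without replicate 2 of FH.

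Some members were neighbours on a chromosome. An ID names its chromosome and its place along it. By these numbers, 52 of the 150 genes fell into 15 runs in which neighbouring members were at most 100 apart, where IDs usually step by 10, and 98 fell into none. How often other genes form such runs was not compared. The longest run was on chromosome 13, from VIT_13s0019g02740 to VIT_13s0019g03160, with 10 members among 38 IDs of which 22 were tested. The next were on chromosome 4, from VIT_04s0008g01490 to VIT_04s0008g01590, with 8 members of 11 IDs, and on chromosome 10, from VIT_10s0071g00330 to VIT_10s0071g00590, with 6 of 24. Only uniquely mapping reads were counted, and how far neighbours share near-identical sequence was not analysed here, so the split of reads within a run is uncertain and the runs are given as sums.

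The chromosome 13 run was high before the heat in vines that were never flooded. Its summed level at T1 was 2646, 1076 and 970 CPM in C and 2499, 1559.5 and 1762 CPM in H, against 281, 98.2 and 689 CPM in F and 102, 1266 and 580 CPM in FH. T0 held 109.9 to 184 CPM, and all 10 members rose from T0 to T1 in unstressed berries, with a median log2 fold change of 3.501. The F over C median at T1 was -2.05, with every C library above every F library and no member past the threshold. At T2 the stressed libraries held 887 to 2881 CPM and the unstressed 77.7 to 461 CPM, and from T2 to T3 the median log2 fold change of its members in stressed berries was -1.53.

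The chromosome 4 run also rose before the heat, with 46.4 to 112 CPM at T0 and all 8 members higher at T1 in unstressed berries (median 3.47). Unlike on chromosome 13, C and F overlapped at T1, with 1957, 517 and 478 CPM in C and 336, 105 and 665 CPM in F. The median F over C of its members was -0.83, and their T3 over T2 median in stressed berries was -0.60. At T2 the chromosome 4 run held 672 to 1472 CPM in stressed and 212 to 487 CPM in unstressed berries, without overlap. It was still up in unstressed berries of T5, where 6 of 8 members were called higher than at T0. The chromosome 10 run was low and uneven, with 7.09, 169 and 217 CPM in H and 45.3, 6.698 and 171 CPM in FH at T2, and replicate 1 of H and replicate 2 of FH lay within the unstressed range of 4.62 to 20.7 CPM. The median stress effects at T4 were 1.76, 1.31 and 0.97 on chromosomes 13, 4 and 10 with all libraries, and 0.10, -0.02 and -0.94 without replicate 2 of FH.

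**Figure D5:**
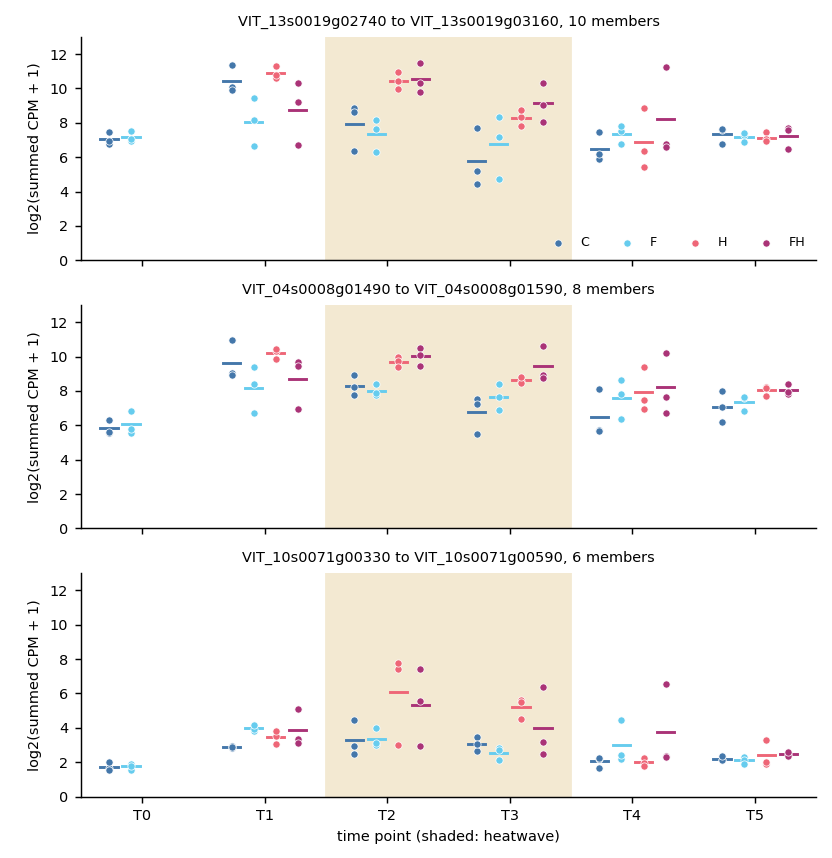
Summed level of the members of the 3 longest runs as log2(summed CPM + 1) by time point, a point for each library and a bar for each group mean, with the heatwave shaded. On chromosome 13 the C and H libraries of T1 overlap the stressed libraries of T2, and the chromosome 10 run is far lower, at most 217 CPM.

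Other genes of the named pathways, taken from lists built on the study's text, are given by their counts. For the stress outside the heatwave, 2 of 4 trehalose genes tested were called, both lower at T5, where 7.75% of all genes were, namely VIT_01s0011g05960 (-0.63) and VIT_10s0003g01680 (-0.84), both outside the list. Of 3 gibberellin genes tested, 1 was lower at T5, the GA2ox of the list, and 1 higher, the other GA2ox VIT_10s0116g00410 (1.38), where 7.75% and 8.57% of all genes were. The GA20ox VIT_15s0048g01320, a gene of gibberellin synthesis, was called higher in FH than in H at T3 (3.18, adjusted p = 0.0445), where 0.772% of all genes were. It averaged only 2.46 CPM in the stressed libraries of the heatwave, and no fit with a library left out is given for it. Of the 7 genes tested of the group that the study linked to abscisic acid, 2 were higher in F than in C at T1, where 6.20% of all genes were, the glyoxalase I gene and 1 outside the list. During the heatwave, as a description, all 4 trehalose genes were higher at T2 and 2 of 4 at T3, and 1 of the 7 abscisic acid genes was higher at T2 and 3 at T3, where 9.09% of all genes were at T2 and 2.81% at T3. Of the 3 gibberellin genes, 2 were higher and 1 lower at T2, and 1 was higher and 1 lower at T3. The lower one was the other GA2ox, VIT_10s0116g00410 (-4.89 at T2 and -2.74 at T3). Of all genes, 9.09% were lower at T2 and 2.53% at T3.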

How the data were processed

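Berry RNA was sequenced as stranded single-end reads of 75 bases. According to the study's methods, reads were aligned with TopHat to the revised 12X Pinot Noir genome, only uniquely mapping reads were kept, and reads per gene were counted with Bedtools coverage without trimming, whereas the submitters' processing notes name Trimmomatic 0.39 and featureCounts. The sources used here give no version of the other tools. As deposited, the values are raw counts per gene and library made by the authors, and no normalization had been applied to them. Replicates were berries of separately chosen vines.

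The list and the gene lists were chosen with earlier results of these data known. Rows of one ID were summed, genes that reached 0.5 CPM in 3 or more libraries were tested (19553, all 150 listed genes among them, which the minimum of 5 CPM in stressed berries had made likely), and 1 model over all 22 groups was fitted in R 4.3.3 with edgeR 4.0.16 (TMM scaling, quasi-likelihood test). Calls needed an adjusted p below 0.05 (Benjamini-Hochberg, all tested genes) and a change of 1.5-fold or more. Comparisons of one day share libraries (FH over H with the stress effect, the stress effect with flooding by stress), so none supports another. Genes named were those with a name in the study or a primer pair, the 12 highest by L, the 5 most abundant, the 3 largest called rises and falls at T1, T4, T5, in FH over H, in flooding by stress and in unstressed berries, the members of the 3 longest runs and ranks 148 to 153. Pathway lists were built from the study's text.

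The alternatives were DESeq2 1.42.0, its size factors in edgeR, no filter, rows of one ID kept separate, only the time points compared, the replicate number as a block, other settings of the list's rule, and each of the 66 libraries left out in turn with the dispersion of the full fit. Replicate numbers were not used as pairs in the main fit. Of 93 same-numbered pairs of libraries, 28 had deviations correlated over 0.1. These correlations ran from -0.629 to 0.731 with a median of 0, against a median of 0.026 in 186 other pairs. The same-numbered pairs of C and F at T0 had 0.307, 0.231 and 0.324, so whether the numbers pair samples on some days is not settled. On simulated counts for the stress effect at T4 over 19553 genes, 60% of genes changed 2-fold and 93% of those changed 4-fold were recovered, with 8 false calls. The simulation gave a gene the same mean in all groups apart from the set change, and no library that stands apart. Its rates therefore do not describe the measured T4 contrast, where replicate 2 of FH weighs on the calls. Total counts of 15927671 to 24150978 per library set the precision of genes with few reads, and intervals cover counting error only.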

Additional observations from a re-analysis of the deposited data

Results flagged for a closer look

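The stress effect changed from T4 to T5 in 12 members by edgeR's test of the difference itself, and all 12 effects were lower at T5. The log2 changes were -3.52 for VIT_05s0077g01150, -3.32 for VIT_16s0050g00400, -2.92 for VIT_06s0004g06830, -2.55 for VIT_08s0007g03050, -2.44 for VIT_18s0086g00320 and -2.42 for VIT_04s0023g02900. They were -2.33 for VIT_15s0046g01560, -2.20 for VIT_18s0001g06790, -2.11 for VIT_02s0025g00700, -1.82 for VIT_07s0141g00090, -1.79 for VIT_01s0011g00760 and -1.52 for the trehalose-phosphatase/synthase VIT_17s0000g08010. All 12 values are with all libraries. The call of VIT_17s0000g08010 was lost in 22 alternative fits, and only replicate 2 of FH was high in that gene at T4. Without replicate 2 of FH at T4 the effect fell in 6 members and rose in 1, where 2.18% and 3.93% of all genes did, and the median change was -0.14 in place of -1.03. The T4 effect on VIT_16s0050g00400, which enters its change, turned below 0 without that library. The call of VIT_06s0004g06830 was lost in 17 alternative fits.

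At T4 the effect of the stress on VIT_01s0137g00790 differed between flooded and unflooded vines by 3.47 on the log2 scale, and by 2.53 and no longer past the threshold without replicate 2 of FH.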

How the results depend on the processing

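The call counts at T4, in FH over H and in flooding by stress depended on the processing. The stress effect at T4 gave 19 calls, 2 with a replicate block, 0 with only the time points compared and 34 with DESeq2. The stress effect at T5 gave 29 calls, and 58 with only the time points compared. Flooding by stress at T4 gave 0 calls without a filter and 0 with only the time points compared. FH over H at T3 gave 6 calls without a filter, 4 with the block and 0 with only the time points compared, and FH over H at T4 gave 0, 0 and 22 calls with the block, with only the time points compared and with DESeq2. The change from T4 to T5 gave 12 calls, 18 with DESeq2 and 8 both without a filter and with only the time points compared. The other counts moved by less than 1.5 times. Under the block there were 7 calls at T1, 27 at T5, 10 for the change from T4 to T5, 13 for T3 over T2, 24 for F over C, 94 for T1 over T0 and 101 for T5 over T0. With 1 library left out, the counts ran from 1 to 8 at T1, 1 to 39 at T4, 17 to 28 at T5, 6 to 20 for the change from T4 to T5, 9 to 27 for F over C, 85 to 90 for T1 over T0, 96 to 100 for T5 over T0, 4 to 21 for T3 over T2, 0 to 12 and 0 to 35 for FH over H at T3 and T4, and 0 to 0, 0 to 1 and 0 to 2 for flooding by stress at T2, T3 and T4. With 1 library left out, the stress effect on VIT_16s0050g00400 at T4 ran from -0.59 to 3.52 and its FH over H value from -0.0612 to 7.93, the lowest being without replicate 2 of FH. Of the 150 members, 113 were kept with log2(CPM + 4), all but 1 with TMM scaling, 140 with a minimum of 1 CPM, 110 and 101 with T2 or T3 alone, 116 and 125 with H over C or FH over F alone, and 137 to 147 with 1 library left out. Of 44 named calls, 23 held under every alternative. The causes were not tested.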
